A study of Mus musculus with 2 samples.

Results

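The transcriptome of XY germ cells under MEK inhibition was followed from 24 h to 72 h of gonad culture in 8 of the 40 germ cell libraries of the study. The libraries were chosen by their column names alone. They comprise 4 libraries of XY germ cells cultured for 24 h with 500 nM MEKi (replicates 1, 2, 4 and 6) and 4 cultured for 72 h with the same dose (replicates 2, 3, 4 and 5). MEKi is PD0325901/Mirdametinib, an inhibitor of the kinases MEK1 and MEK2. The germ cells came from foetal mouse gonads of embryonic day 12.5 (E12.5) and WT genotype, from crosses of ASMU Swiss with a 129svJT2 line that carries an Oct4-eGFP reporter, a transgene that marks germ cells green. Gonads were cultured with the mesonephros attached, so the somatic cells around the germ cells met the inhibitor too, and the mesonephros was removed before sorting. Each library was made from several gonads dissociated together, and the labels give neither the embryos nor the litters, so the p-values measure the spread between pools of gonads. The comparison groups shared the strain, the reporter and the culture, and comprised XY germ cells with DMSO, XY germ cells with 500 nM of the FGF receptor inhibitor FGFRi (BGJ398/Infigratinib) and XX germ cells with DMSO, each with 4 libraries at 24 h and 4 at 72 h.

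All 4 of the 24 h MEKi libraries were in library pool 1 and all 4 of the 72 h MEKi libraries were in pool 2, so time in culture and library pool cannot be told apart in this comparison. The XY DMSO and XX DMSO time courses cross the same 2 pools, whereas both times of the XY FGFRi time course were in pool 2. None of these time courses shares a library with the MEKi time course. Total counts ran from 1938080 to 2350963 in the 24 h MEKi libraries and from 1940297 to 4784965 in the 72 h libraries, and 19295 to 19817 and 21374 to 26780 genes were detected. The 72 h libraries carried the same sample indexes as XY 24 h DMSO libraries of the other pool, whereas the 24 h MEKi libraries had no such partner. Counts that such sharing could carry over were taken out of pool 1 libraries alone, which altered no count of either MEKi group. The MEKi time course had 2522 genes after this removal against 2507 before, through the shared fit alone. Carry-over into the 72 h MEKi libraries was not tested. The difference between the MEKi and DMSO time changes includes the altered 24 h DMSO libraries, and went from 288 to 249 genes. Calls that this removal ended are given beside the genes concerned.

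Foetal germ cells of both sexes start from the same state. In the testis they leave the cell cycle and begin the male programme, in which RNA-binding proteins, the piRNA pathway and de novo DNA methylation prepare the silencing of transposons. In the ovary, BMP and retinoic acid signals lead germ cells into meiosis, which is marked early by STRA8. MEK1 and MEK2 phosphorylate the kinases ERK1 and ERK2 downstream of FGF and other receptors. The study blocked FGF receptors or MEK to ask whether FGF9 acts on the male germ line by way of MAPK, and the comparison described here asks how germ cells that had already spent 24 h under the inhibitor changed over the following culture.

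The sorted cells expressed germ cell markers at both times. All 10 germ cell markers were detected and took 0.455% ± 0.00355 (SD, n = 4) of the counts at 24 h and 0.359% ± 0.0512 at 72 h, a fall with exact permutation p = 0.0286 (adjusted 0.0457). The DMSO means were 0.444% and 0.37%. Dazl, an RNA-binding protein of germ cells, stood between 1550 and 1690 CPM, counts scaled to a common library size, at 24 h and between 987 and 1590 CPM at 72 h. Markers of other cells took far less. Sertoli cell markers made up 0.00668% of counts at 24 h and 0.00867% at 72 h, and of the 10 markers 1, Amh, had 0 counts in the 24 h MEKi libraries while the others were detected. Leydig and interstitial cell markers made up 0.00919% and 0.0137%, with 1 of 12 markers, Insl3, at 0 counts in all 8 libraries and the others detected. Of 8 Sertoli and 9 Leydig genes tested between the times with limma, 0 passed, 1 and 0 had an unadjusted p under 0.05, and edgeR and DESeq2 called 0 of either list. Without XY 72 h MEKi replicate 2, 1 Sertoli gene passed. Endothelial markers took 0.00843% at 24 h and 0.00257% at 72 h, and granulosa and mesonephros markers 0.00922% and 0.00657%, both with exact permutation p = 0.0286 (adjusted 0.0457). Each of these falls was that of 1 gene, singled out after the values were seen. Pecam1 went from a mean of 0.00797% to 0.00164% and the other 6 endothelial markers together from 0.000455% to 0.000925%. Lhx1 went from 0.00754% to 0.00262% and the other 7 granulosa and mesonephros markers together from 0.00167% to 0.00395%, with no overlap between the times. The median log2 fold changes of the tested members were 0.64 and 1.41. Of the granulosa and mesonephros markers, 1 of 7 rose and 1 fell (14.3% each, against 10.9% and 5.51% of all tested genes). The genes that passed were Pax8, which rose by 2.83 on the log2 scale (SE 0.59), and Lhx1, which fell by 1.79 (SE 0.17). Without XY 72 h MEKi replicate 4, 2 of these markers rose.

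Blood cell markers made up 0.0246, 0.0232, 0.0178 and 0.0465% of the counts of the 24 h MEKi libraries and 0.00289, 0.00341, 0.00162 and 0.00231% of the 72 h libraries. Every 24 h library lay above every 72 h library, with the highest share in replicate 6. The difference had p = 0.0286 in a two-sided exact permutation test of 4 against 4 libraries, the smallest p that this design allows (0.0457 after adjustment over 8 shares). The DMSO libraries held 0.00761% ± 0.00408 (SD, n = 4) at 24 h and 0.00497% ± 0.00147 at 72 h. Of 6 blood genes tested, 5 fell and none rose in the MEKi time course, against 5.51% and 10.9% of all tested genes. All 5 encode globins. Hba-x, an embryonic alpha globin, had 34.4, 23.9, 32.3 and 50.9 CPM at 24 h and 1.99, 0, 0.396 and 0 CPM at 72 h. In sorted bulk samples, fewer cells of a type and less RNA per cell cannot be told apart. The part of carried-over blood RNA in the other results was not tested.

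**Figure D1:**
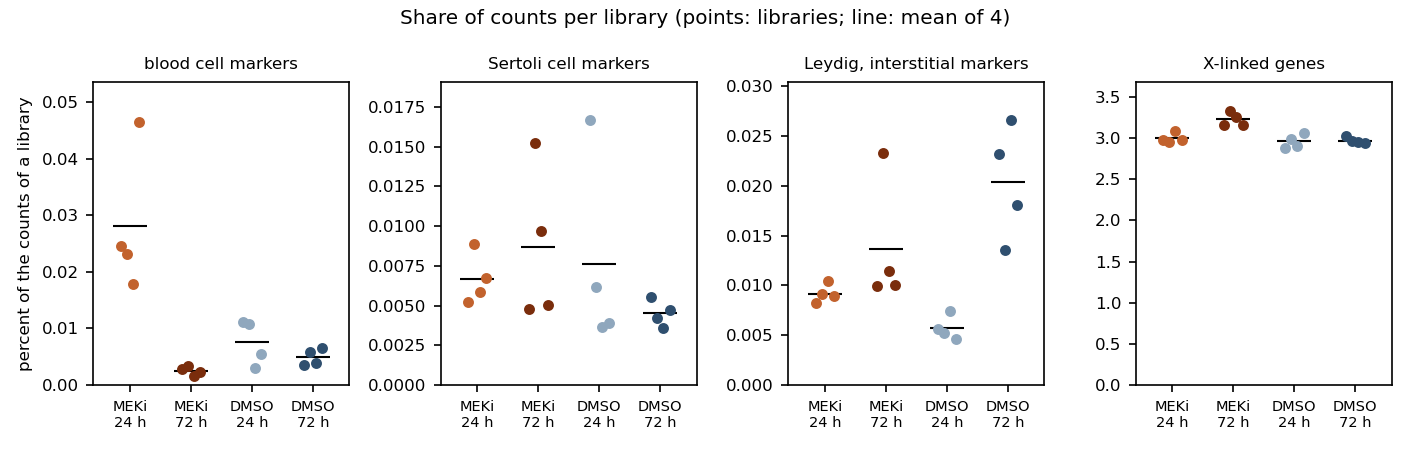
Share of the counts of each library taken by blood cell markers, Sertoli cell markers, Leydig and interstitial cell markers and X-linked genes, in percent, for XY germ cells with MEKi or DMSO at 24 h and 72 h. Points are libraries and lines are means of 4. The 24 h MEKi libraries had a mean of 0.028% blood transcripts and the 72 h MEKi libraries 0.00255%, with no overlap.

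Between 24 h and 72 h with MEKi, 1667 of 15252 tested genes rose (10.9%) and 840 fell (5.51%), at a false discovery rate (FDR) under 0.05 against a change of 1.5-fold. The median log2 fold change of all tested genes was 0.07. Values per library are given below in the order of replicates 1, 2, 4 and 6 at 24 h and replicates 2, 3, 4 and 5 at 72 h. Sohlh1, a transcription factor of early spermatogonia and oocytes (chromosome 2, 25733007 to 25737351, GRCm39), had 0.929, 0, 1.59 and 0 CPM at 24 h and 139, 159, 157 and 186 CPM at 72 h (log2 fold change 7.92, SE 0.7, FDR 2.42e-12). Nxf2, an X-linked germ cell RNA export factor (chromosome X, 133845274 to 133865516, GRCm39), had 0.929, 7.44, 6.88 and 4.38 CPM and then 339, 384, 386 and 437 CPM (log2 fold change 6.71, SE 0.61, FDR 1.02e-11). Both genes were low in every 24 h library and far higher in every 72 h library. The other genes with the largest rises included Dpep3, a dipeptidase of germ cells (log2 fold change 5.53, SE 0.62), and Mapk10, the JNK3 kinase (5.42, SE 0.67). The long noncoding RNA Tslrn1 had 2 counts over the 24 h libraries and 358 over the 72 h libraries, a ratio of 91.0 with a 95% counting interval of 25.0 to 754. Nacad, at 0 CPM in all 4 libraries at 24 h and at 6.95, 11.5, 10.5 and 17.6 CPM after 72 h, lay at least 30.2-fold above a floor of 3 counts over the 24 h group.

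Globins made up several of the genes that fell most. Khdc3, a component of the subcortical maternal complex of oocytes, had 28.3, 19.7, 18 and 23.5 CPM at 24 h and 1.49, 1.25, 1.19 and 1.57 CPM at 72 h (log2 fold change -4.0, SE 0.4). Aldh1b1, a mitochondrial aldehyde dehydrogenase, had 41.3, 40.4, 46.6 and 35 CPM and then 2.98, 2.69, 3.17 and 2.35 CPM (-3.77, SE 0.28). Slc15a1, a peptide transporter, fell by 3.86 (SE 0.53) and Pla1a, a phospholipase, fell by 3.64 (SE 0.57). Khdc3 and Aldh1b1 also fell with DMSO, by 5.48 (SE 0.6) and 3.53 (SE 0.33), so their decline was found with and without the inhibitor.

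Most genes that changed with MEKi also changed over the same interval in the other XY cultures. With DMSO, 2436 genes rose (16.0%) and 1728 fell (11.3%). Of the genes that rose with MEKi, 1149 also rose with DMSO, which is 68.9% of the MEKi list and 47.2% of the DMSO list, and 0 fell. Of those that fell with MEKi, 578 also fell with DMSO (68.8% and 33.4%), and 1 rose. That gene was Lgals3, which encodes the lectin galectin-3 and is high in macrophages. Its mean fell from 5.63 CPM ± 1.88 (SD, n = 4) to 0.626 CPM ± 0.493 with MEKi and rose from 0.328 CPM ± 0.493 to 2.97 CPM ± 1.80 with DMSO. With FGFRi, whose libraries at both times were in pool 2, 2934 genes rose (19.2%) and 2172 fell (14.2%). The rise was shared by 1293 genes (77.6% of the MEKi list and 44.1% of the FGFRi list), and the fall by 652 genes (77.6% and 30.0%). Over the 2934 genes that rose with FGFRi, the median log2 fold change was 2.14 with FGFRi, 1.75 with DMSO and 1.31 with MEKi, and 96.5% had a positive change with MEKi. Over the 2172 that fell with FGFRi, the medians were -1.48, -1.23 and -0.75. The FGFRi genes were chosen on the FGFRi values, so only the DMSO and MEKi medians are free of that choice.

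**Figure D2:**
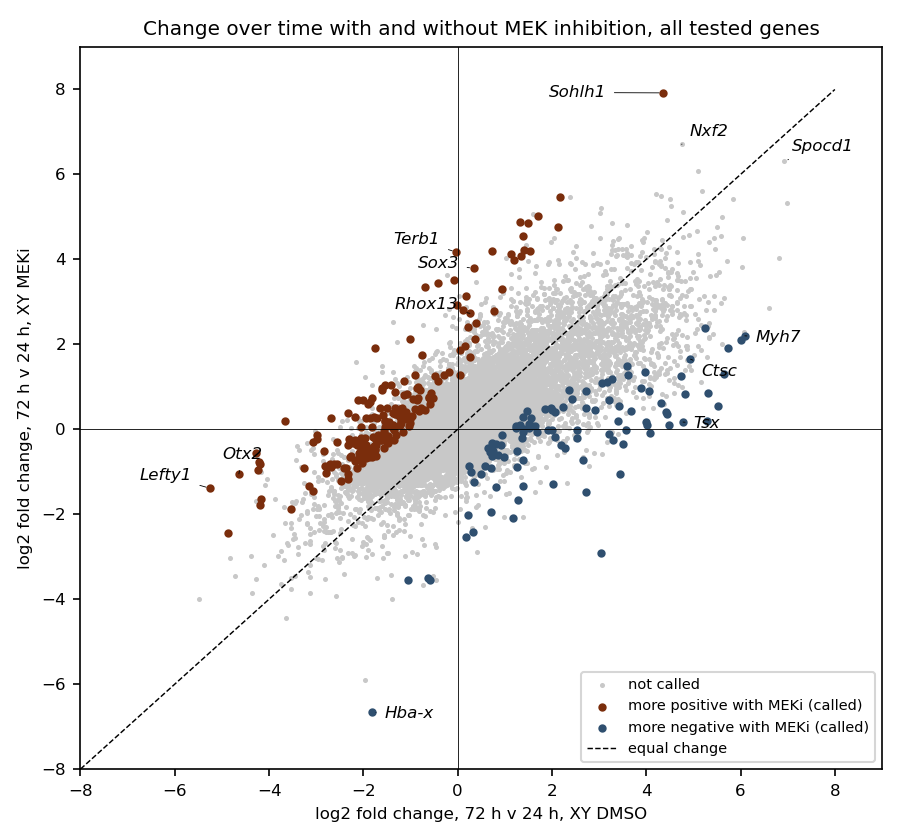
Log2 fold change from 24 h to 72 h with DMSO (x axis) against that with MEKi (y axis) for each of 15252 tested genes in XY germ cells. Brown and blue points are the 185 genes whose change was more positive and the 103 whose change was more negative with MEKi. Sohlh1 and Nxf2 rose in both cultures, Terb1, Sox3 and Rhox13 rose with MEKi alone, and Lefty1 and Otx2 lie far to the left, with a larger fall with DMSO.

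Of 15 tested genes for male germ cell fate and RNA-binding proteins, 6 rose and 1 fell with MEKi (40.0% and 6.67%, against 10.9% and 5.51% of all tested genes), and 5 rose and 2 fell with DMSO (against 16.0% and 11.3% of all tested genes). Lists below are read against the same shares. The list median was -0.29 with MEKi and 0.48 with DMSO. Nanos2, an RNA-binding repressor that secures the male fate, had 1.86, 1.06, 2.12 and 2.74 CPM at 24 h and 6.95, 13.8, 12.9 and 8.23 CPM at 72 h (log2 fold change 2.43, SE 0.5, FDR 0.0031), and did not pass after thinning (1.76, FDR 0.225). The 72 h level remained under the DMSO means, which were 21.8 CPM at 24 h and 27.3 CPM at 72 h. Rhox13, a homeobox gene of the X-linked Rhox cluster, had 3.71, 7.97, 10.6 and 10.4 CPM and then 47.1, 53.2, 49.8 and 43.5 CPM (2.73, SE 0.3). With DMSO it had means of 11.4 and 11.7 CPM, and the difference between the 2 time changes was 2.47 (SE 0.44, FDR 0.00542), which did not pass after thinning all libraries to the smallest total (2.42, FDR 0.233) or with the replicate block (2.11, FDR 0.0503). Sohlh1 differed between the cultures in the same direction, by 3.57 (SE 0.74, FDR 0.0107), a difference that no longer passed without XY 24 h MEKi replicate 6 (3.12, FDR 0.0507). With shared-index counts taken out it was 1.9 (FDR 0.532). Its partner Sohlh2 moved apart from it. Sohlh2 had 131, 142, 133 and 126 CPM at 24 h and 110, 109, 109 and 104 CPM at 72 h with MEKi, a change that did not pass (-0.29, SE 0.11), and fell with DMSO from a mean of 94.0 to 11.7 CPM, so the difference was 2.77 (SE 0.25, FDR 3.04e-08). Brdt, a chromatin reader of the testis, differed the other way. It rose by 1.56 with DMSO (SE 0.11) and had a change of 0.27 with MEKi (SE 0.12), a difference of -1.29 (SE 0.17, FDR 0.00586) that did not pass after thinning (-1.11, FDR 0.389) or without the filter on low counts (-1.18, FDR 0.0701). Dppa2 fell with MEKi by 1.87 (SE 0.2), while its partner Dppa4, a chromatin protein that stays on in male germ cells, had 366, 328, 373 and 402 CPM at 24 h and 303, 283, 292 and 274 CPM at 72 h, without passing the test.

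The promoters of several genes that rose hold the palindrome CACGTG, an E-box. It was singled out after the counts were seen, and its windows are printed as examples from Sohlh1, Nxf2 and genes of the piRNA and meiotic axis lists. Promoters were 250 bases before to 50 after the transcription start in RefSeq on GRCm38.p6. An entry was found for 10165 of the tested symbols (66.7%), which is too few for a comparison over all tested genes, so the search is a description of the listed genes. The motif, read on both strands, was in 10.4% of these 10165 promoters, in 11.4% of the 1205 found among all genes that rose and in 9.68% of the 527 found among all that fell. The letters CNCCTCAG and TCCCGC were searched in the same way. CNCCTCAG was in 9.38% of all promoters found, 12.5% of those of genes that rose and 5.88% of those that fell, and TCCCGC in 36.9%, 34.2% and 31.7%. Among genes that rose, CACGTG was in 2 of 5 promoters of male fate genes, 6 of 10 of piRNA biogenesis, 2 of 4 of nuclear silencing, 5 of 9 of the meiotic axis, 1 of 10 of breaks and crossovers, 0 of 3 of telomere attachment and 0 of 2 of meiotic entry. TCCCGC was in 0 of 5, 2 of 10, 1 of 4, 6 of 9, 6 of 10, 2 of 3 and 2 of 2 of the same promoters, and CNCCTCAG in 0 of 5, 3 of 10, 0 of 4, 2 of 9, 2 of 10, 1 of 3 and 0 of 2. CACGTG thus stood in 5 of the 7 lists and TCCCGC, whose windows are not printed, in 6. Capitals mark the motif CACGTG in the windows printed here.
Sohlh1, chr2:25847424-25847451, minus strand: ctgaaggtctgCACGTGaagcagggagt
Nxf2, chrX:134964780-134964807, minus strand: cctgcaatgatCACGTGaacctccgtta
Tdrd9, chr12:111971453-111971480, plus strand: cacgaggctccCACGTGcatgcagggcc
Fkbp6, chr5:135350065-135350092, minus strand: cgtctatcgatCACGTGccgtttctctc
Mael, chr1:166238951-166238978, minus strand: accaggcctacCACGTGacaatccccgc
Sycp3, chr10:88459533-88459560, plus strand: cgggcatggagCACGTGctaggaggcgg
Hormad1, chr3:95559646-95559673, plus strand: tgcgcactgcgCACGTGctgaccggagc
Sycp1, chr3:102936178-102936205, minus strand: agagaacccggCACGTGggaagggaaat
A match says only that these letters stand in the window. Of these genes, Hormad1 rose by 1.23 and did not pass after thinning (1.17, FDR 0.112).

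The piRNA biogenesis genes make and load the small RNAs that recognise transposons. Of 19 tested, 12 rose (63.2%, against 10.9% of all tested genes), 7 did not pass and 0 fell with MEKi, with a median log2 fold change of 1.62, and 13 rose and 0 fell with DMSO, with a median of 1.79. Between the 2 time changes, limma called 0 genes of the list as different, 1 had an unadjusted p under 0.05, and edgeR and DESeq2 called 0. Tdrd1, a Tudor scaffold of the germ granule, had 10.7, 9.03, 18.5 and 8.76 CPM at 24 h and 116, 118, 128 and 138 CPM at 72 h (log2 fold change 3.46, SE 0.25). Gtsf1, a cofactor of PIWI proteins, had 6.97, 6.91, 12.7 and 7.67 CPM and then 123, 110, 126 and 167 CPM (3.93, SE 0.37). In each 72 h MEKi library both genes lay below the 72 h DMSO libraries, which ran from 278 to 346 CPM for Tdrd1 and from 231 to 306 CPM for Gtsf1. Smaller rises were found for Piwil2, the PIWI protein that loads piRNAs in the cytoplasm (1.8, SE 0.12), Mov10l1, the helicase that starts piRNA processing (1.71, SE 0.1), and Fkbp6, a chaperone of piRNA loading (2.07, SE 0.12). Ddx4, the germ cell helicase also known as MVH, had 229, 214, 230 and 199 CPM and then 433, 328, 353 and 451 CPM, and did not pass (0.79, SE 0.1, FDR 0.0853), whereas it rose with DMSO (1.2, SE 0.1). Its MEKi change did pass with edgeR (0.84, FDR 0.0177), with relative log expression size factors (0.83, FDR 0.0435), with no filter on low counts (0.84, FDR 0.047) and without replicate 3 or 4 at 72 h (0.9 each, FDR 0.0136 and 0.0232).

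Nuclear silencing directed by piRNAs, which brings DNA methylation to transposons, had the highest median of the 31 lists. Of 8 tested genes, 7 rose (87.5%) and 0 fell with MEKi (median 3.56), and all 8 rose with DMSO (median 3.81). Piwil4, the nuclear PIWI protein, had 6.04, 4.78, 1.59 and 3.29 CPM at 24 h and 48.6, 57.8, 72.5 and 68.6 CPM at 72 h (log2 fold change 4.04, SE 0.4, FDR 9.04e-10). With DMSO, Piwil4 went from a mean of 16.4 to 261 CPM (4.41, SE 0.22). The 72 h levels were lower in each MEKi library than in each DMSO library. Spocd1, its partner, had 0 CPM in all 4 libraries at 24 h and 14.9, 18.3, 22.6 and 22.7 CPM at 72 h, a rise of at least 51.0-fold, against DMSO means of 3.31 and 197 CPM. Tdrd9, a helicase, had 1.86, 4.25, 2.12 and 1.1 CPM and then 38.7, 64.3, 81.1 and 102 CPM (5.0, SE 0.61). Tex15, which works with Piwil4, rose from between 55.8 and 74.9 CPM to between 498 and 609 CPM (3.08, SE 0.15). Differences between the MEKi and DMSO time changes did not pass for Piwil4 (-0.37, SE 0.46), Spocd1 or Tdrd9 (-0.61, SE 0.72), and these intervals are too wide to show that the changes were equal. Their size depended on the processing. With shared-index counts taken out the differences were -0.73 for Piwil4, -1.76 for Spocd1 and -2.31 for Tdrd9 (FDR 1.0, 0.79 and 0.456). After thinning that of Tdrd9 was -2.15 and that of Piwil4 was 0.8, and that of Spocd1 was 2.52 with edgeR. Of the 8 genes 1 did differ, Dnmt3a, described next.

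The enzymes of DNA methylation moved in both directions. Of 8 tested writers and erasers, 3 rose and 2 fell with MEKi (37.5% and 25.0%, against 10.9% and 5.51% of all tested genes). Dnmt3l, the cofactor of de novo methylation in male germ cells, had 0, 0, 1.06 and 0 CPM at 24 h and 8.93, 11.8, 22.4 and 10.6 CPM at 72 h. This is 2 against 224 counts, a ratio of 56.9 with a 95% counting interval of 15.6 to 473. With DMSO, Dnmt3l went from a mean of 1.51 to 138 CPM, so each MEKi library at 72 h was well under each DMSO library. The catalytic enzyme Dnmt3a had 165, 159, 174 and 152 CPM and then 228, 228, 244 and 212 CPM with MEKi, which did not pass against 1.5-fold (0.51, SE 0.1), and rose with DMSO (1.98, SE 0.1). The difference between the time changes was -1.48 (SE 0.14, FDR 2.58e-05). Dnmt3b, the other catalytic enzyme, rose by 1.68 (SE 0.22). The demethylating enzyme Tet1 had 574, 616, 599 and 525 CPM and then 103, 91.0, 83.3 and 51.3 CPM (-2.85, SE 0.14), and fell by a like amount with DMSO (-2.83, SE 0.16). Tet2 fell by 1.31 (SE 0.17) and Tet3 rose by 2.95 (SE 0.28). Uhrf1, which keeps methylation through replication, had 120, 119, 126 and 111 CPM and then 221, 171, 182 and 211 CPM without passing (0.69, SE 0.12, FDR 0.598), and differed from its DMSO change of -0.86 by 1.55 (SE 0.19, FDR 0.000834).

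**Figure D3:**
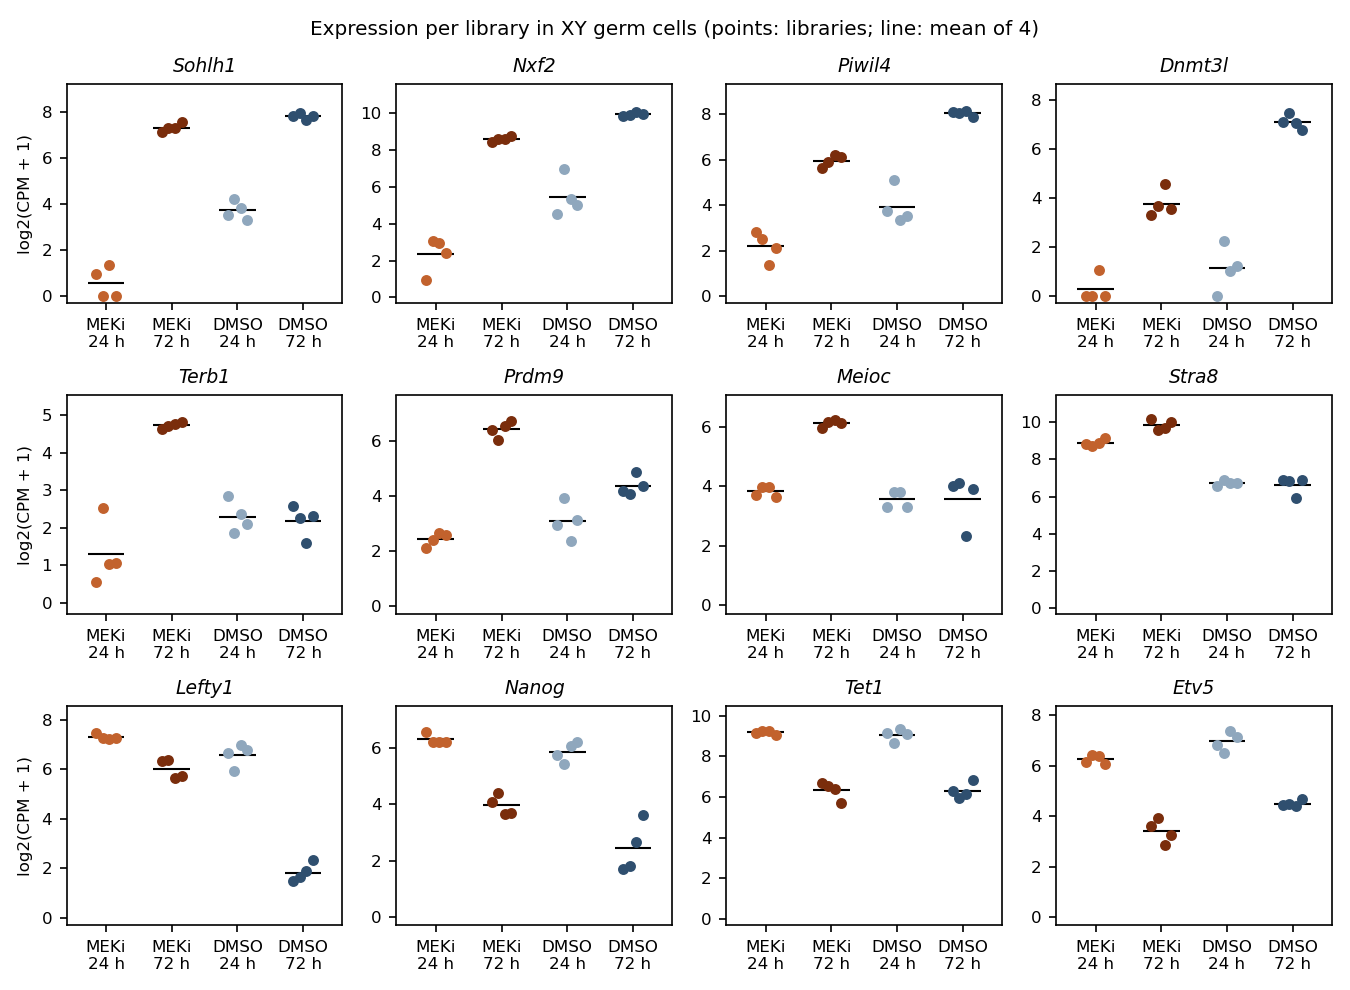
Expression of 12 genes in each library of XY germ cells with MEKi or DMSO at 24 h and 72 h, as log2(CPM + 1). Points are libraries and lines are means of 4. Piwil4 and Dnmt3l rose with MEKi and stayed under the DMSO libraries at 72 h, Terb1, Prdm9 and Meioc were highest in the 72 h MEKi libraries, and Lefty1 stayed higher at 72 h with MEKi than with DMSO.

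Genes of meiosis rose in each of 4 lists in the MEKi time course. Among 8 tested genes of meiotic entry, 3 rose and 0 fell with MEKi (37.5%, against 10.9% of all tested genes), with 2 to 4 that rose when 1 library was left out, and 0 rose or fell with DMSO by limma, edgeR or DESeq2 or at an unadjusted p under 0.05. Stra8, the retinoic acid-induced gatekeeper of meiosis, had 447, 421, 472 and 576 CPM at 24 h and 1160, 770, 818 and 1040 CPM at 72 h. The groups did not overlap, but the change did not pass against 1.5-fold (log2 fold change 0.91, SE 0.14, FDR 0.0577). It passed with the replicate block (1.08, FDR 0.0338), with edgeR (0.98, FDR 0.0154), with relative log expression size factors (0.95, FDR 0.0314), after thinning (1.03, FDR 0.0326) and in a fit of the compared groups alone (0.96, FDR 0.0103). It also passed without replicate 6 at 24 h (1.01, FDR 0.027) or without replicate 3 (1.03, FDR 0.0138) or 4 (1.05, FDR 0.0167) at 72 h. The DMSO means of Stra8 were 106 and 102 CPM, below every MEKi library at either time. Its partner Meiosin had 0.929, 2.66, 1.59 and 0 CPM and then 7.94, 12.9, 7.33 and 8.62 CPM (3.07, SE 0.57, FDR 0.000543), and did not pass after thinning (1.98, FDR 0.185). Meioc, which stabilises meiotic transcripts, had 12.1, 14.9, 14.8 and 11.5 CPM and then 61.5, 71.4, 73.5 and 68.6 CPM (2.4, SE 0.25). The third gene that rose was the meiotic cohesin Rec8 (1.0, SE 0.14, FDR 0.0169), which no longer passed without replicate 1 or 4 at 24 h or replicate 3 or 4 at 72 h, where its estimates ran from 0.89 to 0.95. Rec8 also did not pass with DESeq2 (0.99, FDR 0.0774) or after thinning (1.02, FDR 0.0705).

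Of 14 tested genes of the chromosome axis, cohesin and synaptonemal complex, 9 rose (64.3%) and 0 fell with MEKi (median 1.19). With DMSO 6 rose and 1 fell (median 0.52). In XX germ cells 12 rose and 1 fell, against 10.3% and 11.9% of all tested genes. Between the MEKi and DMSO changes limma called 0 of the 14, 4 had an unadjusted p under 0.05, edgeR called 2 and DESeq2 0. Sycp3, a core protein of the axis, had 175, 127, 195 and 151 CPM at 24 h and 848, 500, 593 and 837 CPM at 72 h (log2 fold change 2.01, SE 0.14), and also rose with DMSO (1.47, SE 0.14). Sycp1, the transverse filament, rose with MEKi by 1.36 (SE 0.11) and had a change of 0.44 with DMSO (SE 0.12). Of 28 tested genes for double-strand breaks, strand exchange and crossovers, 13 rose and 1 fell with MEKi (median 1.01; 46.4% and 3.57%, against 10.9% and 5.51% of all tested genes). With DMSO 7 rose and 3 fell, against 16.0% and 11.3% of all tested genes. In XX germ cells 19 rose and 0 fell, against 10.3% and 11.9%. Prdm9, which places the breaks, had 3.25, 4.25, 5.29 and 4.93 CPM and then 82.4, 64.1, 92.0 and 104 CPM (4.23, SE 0.46, FDR 1.01e-08). With DMSO its means were 8.13 and 20.0 CPM. M1ap, which is needed for crossover formation, had 15.3, 18.6, 16.9 and 15.9 CPM and then 156, 147, 154 and 230 CPM (3.31, SE 0.26), a difference from DMSO of 2.38 (SE 0.38, FDR 0.00198). That difference did not pass with shared-index counts taken out (1.63, FDR 0.216) or after thinning (2.3, FDR 0.0975). Other members that rose were Shoc1 (4.17, SE 0.52) and Rnf212 (4.09, SE 0.45), both of crossover formation, and Meiob, a single-strand DNA-binding protein (2.15, SE 0.28). Mnd1, a cofactor of strand exchange, was the member that fell (-1.07, SE 0.12), with FDR 0.0512 after thinning (-1.01). Spo11, the enzyme that makes the breaks, had 3.25, 5.31, 6.88 and 4.38 CPM and then 3.97, 5.73, 5.95 and 7.05 CPM, with overlapping groups.

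Meiotic chromosomes need telomere attachment to the nuclear envelope to pair. Of 7 tested genes of this attachment, 4 rose (57.1%) and 0 fell with MEKi (median 2.55) and 2 rose with DMSO. Terb1, part of the complex that ties telomeres to the envelope (chromosome 8, 105173351 to 105236545, GRCm39), had 0.464, 4.78, 1.06 and 1.1 CPM at 24 h and 23.8, 25.1, 26.4 and 27.0 CPM at 72 h (log2 fold change 4.17, SE 0.55). With DMSO it had 6.22, 2.6, 4.13 and 3.25 CPM at 24 h (replicates 2 to 5) and 4.92, 3.76, 2.0 and 3.98 CPM at 72 h (replicates 2, 4, 5 and 6). The DMSO libraries overlapped between times while the MEKi libraries did not, and the time changes differed by 4.2 (SE 0.77, FDR 0.00215). The difference did not pass with shared-index counts taken out (3.59, FDR 0.0925) or after thinning (2.44, FDR 0.585). That removal altered no MEKi library, so the rise with MEKi after it (4.19, FDR 3.34e-05) is no test of carry-over. In XX germ cells Terb1 rose by 3.44 (SE 0.18).

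**Figure D4:**
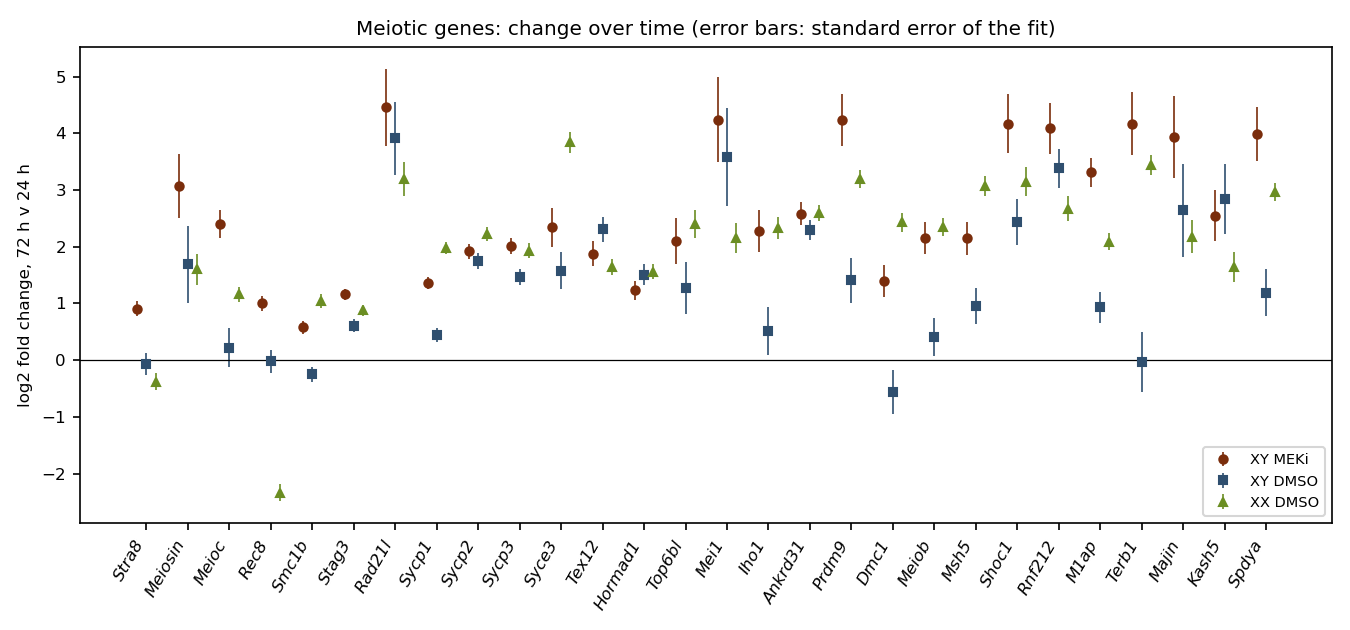
Log2 fold change from 24 h to 72 h of 28 meiotic genes in XY germ cells with MEKi, XY germ cells with DMSO and XX germ cells with DMSO. Points are estimates and bars are standard errors of the fit. Prdm9, M1ap and Terb1 lie higher with MEKi than with DMSO, whereas Rec8 fell in XX germ cells.

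NODAL is a signal that male germ cells use for a short time after sex determination. Of 11 tested genes of its pathway, 3 fell and 0 rose with MEKi, and 6 fell and 0 rose with DMSO. The difference between the time changes was positive for 4 of the 11 and negative for 0, against 1.21% and 0.675% of all tested genes. Lefty1, a NODAL inhibitor and target (chromosome 1, 180762587 to 180765971, GRCm39), had 176, 154, 148 and 152 CPM at 24 h and 79.9, 82.2, 48.6 and 52.5 CPM at 72 h (log2 fold change -1.39, SE 0.13). With DMSO it had 101, 60.9, 125 and 110 CPM and then 1.79, 2.09, 2.66 and 3.98 CPM (-5.25, SE 0.46). Lefty1 fell in both cultures, and every 72 h MEKi library lay above every 72 h DMSO library. The difference of the time changes was 3.86 (SE 0.48, FDR 9.43e-06). Lefty2, its close paralogue on the same chromosome, fell by 2.43 with MEKi (SE 0.16) and by 4.87 with DMSO (SE 0.42), a difference of 2.44 (SE 0.45, FDR 0.00905), and the sequence likeness of the pair makes the split of reads between them uncertain. Otx2, a homeobox gene also repressed in germ cells, had 26.0, 27.6, 36.0 and 24.6 CPM and then 10.9, 14.7, 15.1 and 9.8 CPM with MEKi (-1.05, SE 0.2, FDR 0.0633), and fell by 4.64 with DMSO (SE 0.47). The difference from DMSO was 3.59 (SE 0.51) for Otx2 and passed. The fall of Otx2 with MEKi did pass with the replicate block (-1.3, FDR 0.0164), with edgeR (-1.13, FDR 0.0151) and without XY 72 h MEKi replicate 3 (-1.18, FDR 0.0483).

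Pluripotency genes mark the earlier state of the germ line. Of 18 tested, 9 fell (against 5.51% of all tested genes), 8 did not pass and 1 rose with MEKi (median -0.83). With DMSO 10 fell and 0 rose. In XX germ cells 15 fell and 0 rose, against 11.9% and 10.3% of all tested genes. Nanog, a core pluripotency factor, had 93.8, 74.4, 74.6 and 74.5 CPM at 24 h and 15.9, 20.4, 11.7 and 12.1 CPM at 72 h (log2 fold change -2.48, SE 0.18). Sox2, its partner, had 180, 193, 197 and 192 CPM and then 94.8, 82.5, 86.2 and 57.2 CPM (-1.25, SE 0.13). With DMSO these genes ended at means of 5.34 and 41.6 CPM. Pou5f1, the endogenous counterpart of the reporter used for sorting, had 126, 104, 111 and 129 CPM and then 97.8, 66.2, 70.6 and 63.1 CPM without passing (-0.73, SE 0.11). The member that rose was Sox3, an X-linked gene of spermatogonia, with 1.39, 1.59, 4.23 and 1.1 CPM and then 21.8, 33.1, 25.6 and 31.0 CPM (3.79, SE 0.38). With DMSO, Sox3 had means of 5.94 and 7.55 CPM, a difference of the time changes of 3.45 (SE 0.49, FDR 0.00012) that did not pass after thinning (1.76, FDR 0.81). Of 9 tested primordial germ cell specifiers, 5 fell (55.6%) and 0 rose with MEKi and 6 fell with DMSO. Prdm1, the repressor that starts the germ line, had 31.6, 42.0, 41.3 and 36.1 CPM and then 8.44, 8.59, 8.52 and 5.09 CPM (-2.21, SE 0.23). Tfap2c (-2.28, SE 0.25) and Prdm14 (-1.33, SE 0.19), which act beside it, fell too, though Prdm14 did not pass after thinning (-1.24, FDR 0.237) or without the filter on low counts (-1.23, FDR 0.0619). Dppa3 and Tfap2c were also the 2 of 10 germ cell markers that fell, while Mael rose, with 2 markers higher without XY 72 h MEKi replicate 3 or 4.

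Germ cells of the foetal testis leave the cell cycle. Of 27 tested genes of S phase and the G1-S transition, 5 fell and 1 rose with MEKi (median -0.47; 18.5% and 3.7%, against 5.51% and 10.9% of all tested genes), and the 5 became 3 without XY 24 h MEKi replicate 1 and 2 without XY 72 h MEKi replicate 4. With DMSO 14 fell and 0 rose (median -0.88), against 11.3% and 16.0% of all tested genes. Of 25 mitotic genes, 6 fell and 1 rose with MEKi (median -0.56; 24.0% and 4.0%) and 16 and 1 with DMSO (median -1.57). The time changes differed from DMSO in the positive direction for 4 and 3 genes of these lists and in the negative direction for 0, against 1.21% and 0.675% of all tested genes. Ccne2, a cyclin that starts S phase, had 70.1, 62.2, 52.4 and 53.1 CPM at 24 h and 153, 132, 137 and 156 CPM at 72 h (log2 fold change 1.25, SE 0.17), and a DMSO change of -0.48 (SE 0.22). Mki67, the proliferation marker Ki-67, had 448, 531, 352 and 381 CPM and then 252, 220, 235 and 251 CPM, which did not pass (-0.83, SE 0.13, FDR 0.145). With DMSO it fell from 325, 205, 410 and 341 CPM to 50.6, 51.0, 33.3 and 67.0 CPM (-2.72, SE 0.18), and the time changes differed by 1.89 (SE 0.22, FDR 8.88e-05). Cdk6, a kinase of the G1 phase, had a change of 0.81 with MEKi (SE 0.16) and fell by 1.13 with DMSO (SE 0.17), a difference of 1.94 (SE 0.23, FDR 0.0001). H2ax, which encodes a histone variant, fell by 1.74 with DMSO (SE 0.13) and had a change of -0.25 with MEKi (SE 0.1). The mitotic genes that fell with MEKi included Ube2c (-1.55, SE 0.12) and Nusap1 (-1.32, SE 0.12).

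Of 12 regulators of G1 arrest, 1 rose and 2 fell with MEKi (8.33% and 16.7%, against 10.9% and 5.51% of all tested genes), and 0 rose and 3 fell with DMSO. The gene that rose was Cdkn1c, an imprinted inhibitor of cyclin-dependent kinases, with 92.9, 71.7, 91.0 and 95.8 CPM at 24 h and 218, 209, 201 and 250 CPM at 72 h (log2 fold change 1.28, SE 0.13), against DMSO means of 75.5 and 75.4 CPM. Trp53, which encodes p53, had 273, 260, 251 and 233 CPM and then 90.3, 77.9, 77.9 and 61.9 CPM (-1.74, SE 0.12), and also fell with DMSO. Cdkn1b, which encodes the inhibitor p27, had 11.6, 13.3, 11.1 and 10.4 CPM and then 21.3, 18.6, 19.4 and 17.2 CPM without passing (0.71, SE 0.25). Omission of 1 library took the rises to 2 (without replicate 4 at 24 h or 4 or 5 at 72 h) and the falls to 1 (without replicate 1 or 6 at 24 h or 4 or 5 at 72 h).

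By immunofluorescence, the study detected phosphorylated ERK in somatic cells of the cultured testis but not in germ cells. Targets and feedback inhibitors of ERK are genes that respond to ERK activity. Of 19 tested, 7 fell and 1 rose with MEKi (36.8% and 5.26%, against 5.51% and 10.9% of all tested genes) and 9 fell and 1 rose with DMSO, and the 7 became 4 without XY 24 h MEKi replicate 1. Etv5, an ETS factor induced by FGF and ERK, had 69.7, 85.5, 82.0 and 66.2 CPM at 24 h and 11.4, 14.5, 6.34 and 8.62 CPM at 72 h (log2 fold change -3.04, SE 0.2). With DMSO it had means of 127 and 21.8 CPM (-2.56, SE 0.19). Dusp4, a phosphatase that inactivates ERK, had 29.3, 36.7, 41.3 and 27.4 CPM and then 8.93, 2.51, 4.36 and 3.53 CPM (-3.04, SE 0.31). Its DMSO means were 58.9 and 2.19 CPM. Etv1, another ETS factor, had 18.1, 9.56, 23.3 and 9.31 CPM and then 0, 2.69, 1.59 and 0 CPM (-3.86, SE 0.55), and Spred2, an inhibitor of RAF activation, fell by 1.14 (SE 0.16) but did not pass without the filter on low counts (-1.1, FDR 0.118). Nab2, a corepressor of EGR factors, was the member that rose, with 0.464, 1.06, 1.06 and 2.19 CPM and then 15.9, 13.8, 15.3 and 11.8 CPM (3.5, SE 0.53). Between the MEKi and DMSO time changes limma called 0 of these genes, 2 had an unadjusted p under 0.05, edgeR called 1 and DESeq2 0. Among 15 tested FGF receptors and RAF-MEK-ERK kinases, 0 rose and 0 fell with MEKi in the limma test, 2 had an unadjusted p under 0.05, edgeR called 1 and DESeq2 0. There was 1 rise without XY 72 h MEKi replicate 2 or 3, and with DMSO 1 rose and 2 fell. Map2k1 and Map2k2, which encode the inhibited kinases, had changes of -0.32 (SE 0.15) and 0.02 (SE 0.08).

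BMP and retinoic acid are the signals that lead to meiosis in the ovary. Of 10 tested BMP target genes, 1 fell (10.0%, against 5.51% of all tested genes) and 0 rose with MEKi, and 0 fell without XY 24 h MEKi replicate 1 or 4 or XY 72 h MEKi replicate 4 or 5. The gene was Id3 (log2 fold change -1.21, SE 0.22, FDR 0.02), whose estimates without those libraries ran from -1.1 to -1.14. Id3 also did not pass with DESeq2 (-1.13, FDR 0.0944), with the replicate block (-1.05, FDR 0.173) or after thinning (-1.25, FDR 0.182). Nor did it pass with no filter on low counts (-1.17, FDR 0.315) or with no sample quality weights (-1.15, FDR 0.0557). In XX germ cells 8 of the 10 fell, against 11.9% of all tested genes. Of 12 tested genes of retinoic acid reception and metabolism, 4 rose and 0 fell with MEKi (33.3% rose, against 10.9% of all tested genes) and 5 rose and 2 fell with DMSO (against 16.0% and 11.3% of all tested genes). The 4 became 2 without XY 24 h MEKi replicate 1, 1 without XY 24 h MEKi replicate 6, and 2 without XY 72 h MEKi replicate 3 or 4. Crabp1, a retinoic acid binding protein, passed throughout, with 11.6, 10.6, 20.6 and 13.7 CPM and then 79.4, 73.2, 87.6 and 124 CPM (2.68, SE 0.24). Of 9 oocyte factors tested, 4 rose and 1 fell with MEKi (44.4% and 11.1%, against 10.9% and 5.51% of all tested genes), and 2 rose and 2 fell with DMSO (against 16.0% and 11.3% of all tested genes). Figla, which switches on zona pellucida genes in oocytes, had 3.25, 1.59, 5.82 and 3.29 CPM and then 31.3, 24.0, 31.9 and 59.6 CPM (3.23, SE 0.46), and rose alike with DMSO (3.84, SE 0.52). Lhx8, a homeobox factor of oocytes, had 0.464, 0.531, 0 and 2.19 CPM and then 13.9, 5.91, 8.92 and 12.1 CPM (3.47, SE 0.6), with DMSO means of 1.32 and 1.81 CPM. Ooep, of the subcortical maternal complex, fell by 1.24 (SE 0.16), and did not pass after thinning (-1.13, FDR 0.122).

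Of 18 genes of cholesterol synthesis, uptake and export, 8 fell and 1 rose with MEKi (44.4% and 5.56%, against 5.51% and 10.9% of all tested genes; 11 and 1 with DMSO), and the rise was lost without XY 24 h MEKi replicate 6. Sqle, squalene epoxidase, fell by 1.4 (SE 0.11), and Pmvk, a kinase of the mevalonate pathway, fell by 1.75 (SE 0.19). Of 18 glycolytic genes, 1 rose and 1 fell (5.56% each, against 10.9% and 5.51% of all tested genes). Ldha, the lactate dehydrogenase subunit of muscle, had 35.3, 39.3, 40.7 and 46.5 CPM at 24 h and 86.9, 91.7, 89.2 and 108 CPM at 72 h (log2 fold change 1.21, SE 0.15), and Ldhb, that of heart, had 549, 478, 446 and 420 CPM and then 128, 149, 117 and 96.8 CPM (-1.97, SE 0.12). The subunits moved in opposite directions with DMSO as well (2.1, SE 0.18, and -3.21, SE 0.16). Of 18 imprinted genes, 3 rose and 3 fell with MEKi (16.7% each, against 10.9% and 5.51% of all tested genes) and 8 rose and 4 fell with DMSO (against 16.0% and 11.3% of all tested genes). Grb10, a growth factor receptor adaptor, rose by 2.65 (SE 0.28), while Peg3 (-1.52, SE 0.12) and Mest (-1.69, SE 0.18), both expressed from the paternal copy, fell. Of 14 Polycomb genes, 1 rose and 1 fell (7.14% each, against 10.9% and 5.51% of all tested genes). The gene that fell was Max (-1.03, SE 0.12), a partner of MYC and of a Polycomb complex, which did not pass after thinning (-1.08, FDR 0.096) or with the replicate block (-0.96, FDR 0.0537). Of 13 BCL2 family genes 1 rose (7.69%, against 10.9% of all tested genes), and 0 rose without replicate 1, 2 or 6 at 24 h or replicate 4 at 72 h. Of 11 dissociation and stress genes, 2 rose and 1 fell with MEKi (18.2% and 9.09%, against 10.9% and 5.51% of all tested genes), and 5 rose and 0 fell with DMSO (against 16.0% and 11.3% of all tested genes). Hspa1a, a heat shock chaperone, rose by 2.34 (SE 0.48), Hmox1, haem oxygenase, rose by 1.51 (SE 0.25), and Trib3, a stress-induced pseudokinase, fell by 1.75 (SE 0.24). Hspa1a did not pass with the replicate block (1.93, FDR 0.085), nor Hmox1 after thinning (1.34, FDR 0.132). Of 3 endothelial markers tested, Pecam1 fell (-2.33, SE 0.2), a gene that germ cells of this stage also express.

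**Figure D5:**
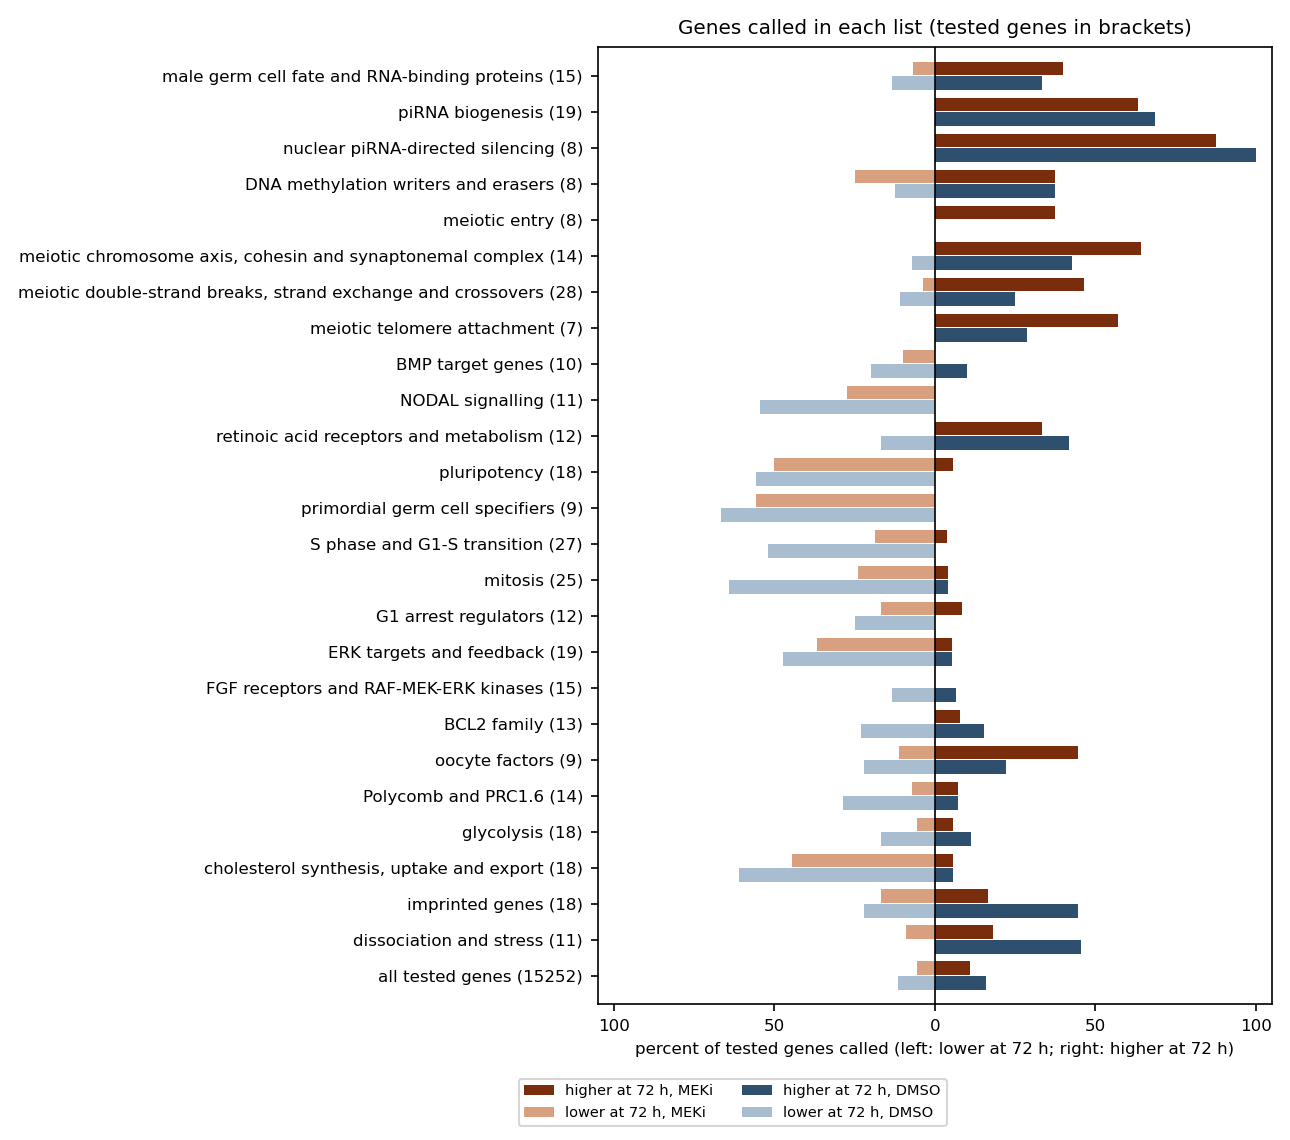
Percent of the tested genes of each list that fell (left) or rose (right) from 24 h to 72 h in XY germ cells with MEKi (brown) or DMSO (blue), with the number of tested genes in brackets. Nuclear piRNA-directed silencing had 7 of 8 genes higher with MEKi and 8 of 8 with DMSO, and mitosis had 6 of 25 lower with MEKi and 16 of 25 with DMSO.

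The time change with MEKi was compared with that with DMSO in 1 model, as the difference of the 2 changes, and both changes cross the same pools. The difference was positive for 185 genes (1.21%) and negative for 103 (0.675%), 288 in all, and 1490 genes had an unadjusted p under 0.05. Without XY 24 h DMSO replicate 5 the count was 184. With size factors from relative log expression the split was 140 positive and 119 negative (54.1% positive against 64.2%). That scaling moved the median change of all tested genes from 0.02 to 0.14 with DMSO and from -0.10 to 0.01 in XX germ cells. Of the 185 positive genes, 114 fell with DMSO and did not pass with MEKi, 33 rose with MEKi and did not pass with DMSO, 14 fell in both cultures, 6 rose in both and 18 passed in neither. Of the 103 negative genes, 69 rose with DMSO without passing with MEKi, 14 fell with MEKi alone, 7 rose in both, 12 passed in neither and 1, Lgals3, moved in opposite directions. The negative genes held 3 of 6 tested blood markers and 1 of 9 Leydig and interstitial markers, against 0.675% of all tested genes. The positive genes held 0 of either list. The part of RNA from other cells in this difference was not tested. Tsx, an X-linked testis gene, had 0.929, 0.531, 2.12 and 1.1 CPM at 24 h and 0.496, 1.43, 1.59 and 1.57 CPM at 72 h with MEKi and rose with DMSO from a mean of 0.455 to 14.7 CPM, a difference of -4.62 (SE 0.87, FDR 0.00278; after thinning -4.82, FDR 0.0557). Insl6, a relaxin-like peptide of male germ cells, rose with DMSO from a mean of 1.3 to 20.2 CPM and had a change of 0.09 with MEKi (SE 0.49), a difference of -4.39 (SE 0.8, FDR 0.00186), which did not pass after thinning (-3.53, FDR 0.0858). Lhx1, a LIM homeobox gene, had 84.5, 75.4, 92.1 and 70.1 CPM and then 27.8, 26.9, 21.8 and 18.4 CPM with MEKi and fell with DMSO from a mean of 157 to 9.17 CPM, a difference of 2.41 (SE 0.34, FDR 0.000437).

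In XX germ cells with DMSO, 1578 genes rose (10.3%) and 1815 fell (11.9%) over the same interval. Which direction held more genes depended on the scaling and the model, with 1910 that rose and 1520 that fell under relative log expression size factors (55.7% of calls higher, against 46.5%), 1616 and 1416 with DESeq2, and 870 and 467 with the replicate block. Of the genes that rose with MEKi in XY cells, 415 also rose in XX cells (24.9% of the MEKi list and 26.3% of the XX list), and 89 of them fell in XX cells. The fall was shared by 366 genes (43.6% and 20.2%), and 5 rose in XX cells. The difference between the MEKi and XX time changes was positive for 1824 genes (12.0%) and negative for 699 (4.58%). With the replicate block these were 381 and 256, and after thinning 836 and 345. The difference was positive for 8 of 15 male fate genes, 7 of 19 piRNA biogenesis genes and 7 of 8 nuclear silencing genes. It was also positive for 11 of 18 pluripotency genes, and negative for 0 of these 4 lists. Tex15 rose by 1.86 in XX cells (SE 0.13), while Piwil4 fell there by 3.77 (SE 0.59), Sohlh1 had a change of -0.09 (SE 0.31) and Nxf2 one of 0.7 (SE 0.23). Of the 28 genes of breaks and crossovers, 4 had a more negative change with MEKi than in XX cells and 0 a more positive one. Prdm9 rose in XX cells by 3.2 (SE 0.16), M1ap by 2.09 (SE 0.15) and Meioc by 1.16 (SE 0.13), whereas Rec8 fell by 2.34 (SE 0.15). Sex and treatment both differ between these groups, so the 2 cannot be told apart here.

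Genes on the X chromosome took a slightly larger share of the counts at 72 h with MEKi, 3.0% ± 0.0609 (SD, n = 4) at 24 h and 3.23% ± 0.0818 at 72 h (exact permutation p = 0.0286, adjusted 0.0457), with DMSO means of 2.96% and 2.97%. Mitochondrial genes took 1.74% ± 0.091 and 1.48% ± 0.311, a difference that did not pass (exact permutation p = 0.2). Genes of ribosomal proteins, a share that was not among those tested, took 4.88, 4.41, 4.99 and 5.11% of the counts at 24 h and 3.9, 3.28, 3.43 and 3.73% at 72 h with MEKi. Their MEKi libraries did not overlap between the times, and their DMSO means were 4.43% and 4.18%.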

How the data were processed

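Germ cell RNA was sequenced with poly(A)-primed libraries that carry a sample index and a UMI. The authors aligned reads to GRCm39 with Rsubread through scPipe and deposited UMI-collapsed gene counts, which were used as deposited. UMI collapse removes PCR copies, and intervals and floors cover counting error only. Of 42422 genes, 15252 passed edgeR's filter on low counts (10 counts, 15 in total) and held 99.22% of the counts. Counts were scaled by TMM and fitted in limma 3.58.1 (R 4.3.3, edgeR 4.0.16) with voom and sample quality weights over all 40 libraries by group, and changes were tested against 1.5-fold with Benjamini-Hochberg adjustment at an FDR of 0.05. Differences between time changes came from the same fit. The share of counts taken by each marker list was tested between times by permuting the libraries exactly, two-sided. On simulated data of 15252 genes for the MEKi time course, 21 of 100 genes changed 2-fold and 94 of 100 changed 4-fold were called. For the difference between the MEKi and DMSO time changes these were 6 and 85 of 100, so changes of 2-fold were mostly missed there. The simulation changed far fewer genes than were called in the data, and none of low expression. Its shares therefore do not measure the power of the real comparisons.

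Replicates are pools of gonads. The members and lists were chosen with earlier results of these data known. Genes named are list members, the 10 higher and 10 lower genes of largest change with groups that did not overlap and a mean of 10 CPM or more, the 8 most positive and 8 most negative differences from DMSO, lists of 5 or fewer calls and calls that 1 library decides. Of 437 list symbols, 384 were tested and the rest were under the filter, except 4 that are not analysed here. Some genes are not reported here. Alternatives included DESeq2 1.42.0, edgeR, other size factors, no filter, no weights, thinning to the smallest total, a replicate block, removal of shared-index counts and omission of each library. A promoter was found for under 80% of the tested genes, so comparison of motifs over all genes is void.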

Additional observations from a re-analysis of the deposited data

Results flagged for a closer look

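In groups of 4 libraries, the highest or lowest library lay far from the others in 13 of 216 cases tested. Chance gives such a gap in about 1 in 20 groups, or 10.8 cases here. At 24 h, replicate 4 was high for Dnmt3l (1.06 CPM), Gtsf1 (12.7 CPM) and Sox3 (4.23 CPM), replicate 2 for Terb1 (4.78 CPM) and Tslrn1 (1.06 CPM), replicate 1 for Nanog (93.8 CPM) and replicate 6 for Rec8 (95.8 CPM). At 72 h, replicate 5 was high for M1ap (230 CPM) and low for Pla1a (0 CPM), Prdm1 (5.09 CPM) and Sohlh2 (104 CPM), and replicate 2 was low for Tsx (0.496 CPM). Leydig and interstitial markers took 0.0233% of the counts of XY 72 h MEKi replicate 3, above the other 3 libraries. Without that library, the difference of their share between the times went from 0.00446 to 0.00123 percentage points.

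The time change differed between MEKi and DMSO for 288 genes, and between XY MEKi and XX DMSO for 2523 genes, by the test of the difference in the limma fit. Among named genes, differences from DMSO on the log2 scale were positive for Terb1 (4.2), Lefty1 (3.86), Otx2 (3.59), Sohlh1 (3.57), Sox3 (3.45), Sohlh2 (2.77), Rhox13 (2.47), Lefty2 (2.44), Lhx1 (2.41), M1ap (2.38), Cdk6 (1.94), Mki67 (1.89), Uhrf1 (1.55) and H2ax (1.49). They were negative for Tsx (-4.62), Insl6 (-4.39), Dnmt3a (-1.48) and Brdt (-1.29). Those of Terb1, Sohlh1 and M1ap did not pass with shared-index counts taken out.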

How the results depend on the processing

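Counts of genes called depended on how the threshold was set. With limma's test against no change and an observed fold over 1.5, 6064 genes were called in the MEKi, 7298 in the DMSO, 8251 in the FGFRi and 6789 in the XX time course, 2889 for MEKi minus DMSO and 5991 for MEKi minus XX. After thinning to the smallest total, 1156, 2570, 66 and 1181 were called for MEKi, DMSO, MEKi minus DMSO and MEKi minus XX. For MEKi minus DMSO edgeR called 494 and DESeq2 182. With a replicate block, 1337 genes were called in XX and 637 for MEKi minus XX, and 1862 in the MEKi time course. The MEKi groups share the numbers 2 and 4 alone, whose libraries did not deviate together (correlations -0.0485 and -0.0284). Omission of 1 library gave 1882 to 2704 calls with MEKi and 184 to 321 for MEKi minus DMSO.

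Changes that did not pass reversed sign for Insl6 with MEKi (-0.06 without quality weights, -0.15 thinned, -0.44 to 0.45 with 1 library out), Map2k2 (-0.02 to 0.04 with 1 library out), Spo11 (-0.24 with the replicate block), Tsx (-0.28 with the replicate block, -0.21 thinned, -0.03 to 0.42 with 1 library out), and, for MEKi minus DMSO, Piwil4 (0.8 thinned) and Spocd1 (2.52 with edgeR, 1.64 with DESeq2). The Sertoli share difference ran from -0.00018 (without XY 72 h MEKi replicate 3) to 0.00328 percentage points with 1 library out, and that of blood markers ran from -0.0289 to -0.0193 with 1 24 h library out. The causes were not tested. Counts at 1938080 per library and above limit changes that could be called in genes under a few CPM.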

Other observations

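Gene families outside the lists were chosen after their values were seen, and are given without a test. Of all tested genes, 10.9% rose and 5.51% fell with MEKi. Of 13 Mage a, b and c genes, 11 rose (84.6%) and 0 fell (median log2 fold change 3.03, and 2.15 with DMSO). Of 14 H2 histocompatibility genes, 9 rose (64.3%) and 0 fell (median 2.54, and 1.83 with DMSO). Of 32 Cfap genes, which encode proteins of cilia and flagella, 14 rose (43.8%) and 1 fell (median 1.55, and 2.47 with DMSO), and of 12 Xlr genes 8 rose (66.7%) and 0 fell (median 1.58, and 1.26 with DMSO). Of 23 Rhox genes, 6 rose (26.1%) and 0 fell (median 0.74, and 0.73 with DMSO), and of 8 Hox genes 6 rose (75.0%) and 0 fell (median 2.65, and 3.33 with DMSO). Of 16 Snhg host genes of small nucleolar RNAs, 2 rose (12.5%) and 7 fell (43.8%; median -0.89, and -1.3 with DMSO). Near-identical copies in the Mage, H2, Rhox and Xlr families make the split of reads between members uncertain.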
